A study of Sus scrofa with 61 samples.

Results

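The insulin-like growth factor (IGF) system was read here through 9 genes in fetal pig muscle: the ligands IGF1 and IGF2, the receptors IGF1R and IGF2R, and the binding proteins IGFBP2, IGFBP3, IGFBP4, IGFBP5 and IGFBP6. Members were taken by name only: every array probe whose gene name in the scanner files, or in the gene lists of the study, was one of these symbols. This gave 37 probes out of 60305 on the array that are not controls. Of these, 36 passed the filter on dim probes, as did 42436 of all probes, and the one left out was an IGFBP4 probe that stood well above background on 1 of 61 arrays.

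The samples were longissimus dorsi muscle, the long muscle of the back, from 61 male fetuses taken by caesarean at gestational day 90 or day 110, the last weeks before farrowing. Large White (LW) and Meishan (MS) are breeds that differ in piglet survival at birth, and their sows received semen of both breeds together, so that a litter could hold purebred and crossbred fetuses. LWMS fetuses had an MS dam and an LW sire, and MSLW fetuses had an LW dam and an MS sire. At day 90 there were 8 fetuses of each genotype, and at day 110 there were 9 LW, 7 MS, 8 LWMS and 5 MSLW. The labels do not name the sow, so each fetus was counted as a separate sample although some shared a litter, and p-values measure the spread between fetuses. Every muscle was a bulk sample, in which fewer cells of a type and less RNA per cell cannot be told apart.

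IGF1 and IGF2 are secreted growth factors that signal mainly through IGF1R, a receptor tyrosine kinase, and drive both the proliferation of myoblasts and the growth of muscle fibres. IGF2R, also the mannose 6-phosphate receptor, takes up IGF2 and carries it to lysosomes without relaying a growth signal. IGF2 is the main IGF of fetal tissues and is an imprinted gene, transcribed mostly from the copy inherited from the father, while IGF2R is expressed mostly from the maternal copy in several species. IGF binding proteins hold IGFs in the extracellular space and either limit or prolong their action, and proteases release the ligand again. In muscle, IGFBP5 is linked to differentiating myoblasts, IGFBP6 binds IGF2 in preference to IGF1, and IGFBP3 is the main carrier in the circulation.

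Expression is given as log2 of the background-corrected fluorescence after quantile normalization, and a difference between groups is a difference of log2 means. A difference was called when limma's moderated test gave an adjusted p (Benjamini-Hochberg, over all 42436 probes) under 1%. Where a gene had several probes, values are those of a representative probe, the one that varied most closely with the other probes of that gene within groups. Levels of different probes cannot be compared with each other, since each binds with its own strength. Whether groups overlap is stated for the members only. The share of all probes whose groups do not overlap is not given, so such statements describe values and do not set a member apart. No member probe was marked as saturated on any array. Of the 61 arrays, 60 had a median correlation with the other arrays of their group of 0.978 to 0.991, and one day 90 MSLW fetus had 0.962.

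The probes are 60-base sequences, and those shown here let a reader see what the IGF2 signal rests on. The first pair overlap along the transcript and the capitals mark the 38 bases they share, so they are not independent readings; the third is the representative probe and the last was spotted again under another name.
A_72_P537638: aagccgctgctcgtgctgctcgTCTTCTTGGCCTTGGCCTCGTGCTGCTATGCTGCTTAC
A_72_P537644: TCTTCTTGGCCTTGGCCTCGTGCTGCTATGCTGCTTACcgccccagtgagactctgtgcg
O9318: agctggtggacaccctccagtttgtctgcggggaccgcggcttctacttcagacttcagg
A_72_P544532: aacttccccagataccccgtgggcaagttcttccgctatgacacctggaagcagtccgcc
Over the 61 fetuses the 2 spottings of this last sequence differed by 0 on average, with an SD of 0.05 and a largest gap of 0.16 on the log2 scale. Within groups, the 9 IGF2 probes correlated with a median r of 0.82 over 36 pairs, which ran from -0.045 to 0.96.

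IGF2 fell between day 90 and day 110, by less in LW than in MS, and by day 110 it was lower in MS than in LW by more than its spread. At day 90 the representative probe ran from 15.15 to 15.67 in LW, with a median of 15.47 and a mean of 15.43 ± 0.15 (SD, n = 8). In MS of that age it ran from 14.76 to 15.12, with a median of 14.98 and a mean of 14.97 ± 0.13 (SD, n = 8). Every MS fetus was thus already below every LW fetus. The crosses lay between them: LWMS ran from 15.07 to 15.43 (median 15.27, mean 15.26 ± 0.12, SD, n = 8) and MSLW from 14.82 to 15.57 (median 15.15, mean 15.22 ± 0.27, SD, n = 8), and each overlapped both purebreds.

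By day 110 the genotypes had drawn apart. LW still ran from 14.60 to 15.43 (median 15.15, mean 15.09 ± 0.26, SD, n = 9), overlapping its day 90 range. LWMS ran from 14.20 to 14.77 (median 14.43, mean 14.46 ± 0.21, SD, n = 8). The 5 MSLW fetuses had 14.29, 13.83, 14.20, 13.89 and 13.88 (mean 14.02 ± 0.21, SD, n = 5), and MS ran from 13.39 to 14.11 (median 13.58, mean 13.66 ± 0.26, SD, n = 7). The order was therefore LW, LWMS, MSLW, MS, in which only neighbours overlapped.

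**Figure D1:**
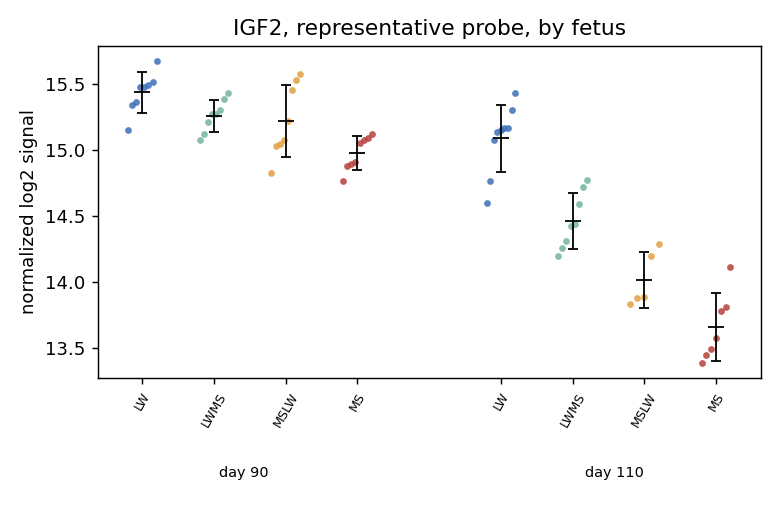
IGF2 level (representative probe, quantile-normalized log2 intensity, vertical axis) in each of 61 fetuses, by genotype and gestational day; each point is a fetus, sorted by value within its group, and the black bar is the mean ± SD. At day 110 the means step down from 15.09 in LW through 14.46 in LWMS and 14.02 in MSLW to 13.66 in MS, while at day 90 they lie between 14.97 and 15.43.

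Tested across days, IGF2 was lower at day 110 by a log2 difference of -1.31 in MS (95% CI -1.53 to -1.09, adjusted p = 5.54e-16), -1.20 in MSLW (-1.44 to -0.96, adjusted p = 9.08e-13) and -0.79 in LWMS (upper 95% limit -0.58, adjusted p = 2.66e-09). In LW the change was -0.35 (95% CI -0.55 to -0.14, adjusted p = 0.00293), but 0.02 (adjusted p = 0.926) when quantile normalization was replaced by subtracting the 75th percentile of each array. That scaling (75th percentile scaling below) also took the LWMS change to -0.28 (adjusted p = 0.0349), while both the MS and the MSLW change were -0.75 and stayed past the threshold. The day 110 fetuses were lower within every slide that held both ages, which was 7 of 7 slides for LW and for MS, 8 of 8 for LWMS and 5 of 5 for MSLW. Of all probes, 56.7% were called between days in MS, 50.9% in LWMS, 45.3% in LW and 44.6% in MSLW, so a call for age was common.

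The age change differed between the breeds: it was 0.96 log2 units more negative in MS than in LW (difference -0.96, 95% CI -1.26 to -0.66, adjusted p = 1.04e-05), in a test that called 5.95% of all probes. Under 75th percentile scaling this difference was -0.76 (adjusted p = 0.000874). All 9 IGF2 probes were called for it, from -1.06 to -0.42.

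Between the purebreds, IGF2 was lower in MS at both ages. The log2 difference was -0.46 at day 90 (95% CI -0.67 to -0.25, adjusted p = 0.000693) and -1.42 at day 110 (95% CI -1.64 to -1.21, adjusted p = 1.69e-16), a 2.68-fold lower level. These comparisons called 12.8% and 29% of all probes. Within slides, MS was below LW on 8 of 8 slides at day 90 and on 6 of 6 at day 110, where the gap ran from -1.76 to -1.31.

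The reciprocal crosses carry the same pair of breeds but from opposite parents. Each MSLW fetus also grew in an LW sow and each LWMS fetus in an MS sow, and these males took their X chromosome from the dam. A difference between the crosses therefore cannot tell the parental origin of an allele from the uterus or the litter. At day 90 MSLW and LWMS differed by -0.04 (95% CI -0.25 to 0.17, adjusted p = 0.96), and limma called 0 of the 36 member probes (1 had an unadjusted p under 0.05) where 0.5% of all probes were called. At day 110 the fetuses with the MS sire were lower, by -0.44 (95% CI -0.68 to -0.20), which missed the threshold for the representative probe (adjusted p = 0.0282). Other IGF2 probes passed: 5 of 9 were called lower in MSLW, against 0.912% of all probes in either direction, with the 9 estimates running from -0.77 to -0.13. Counts over the 9 probes are not counts of independent tests, since they read 1 gene in the same fetuses and some share bases. With slide as a block the representative probe gave -0.40 (adjusted p = 0.00474), and the mean over the 9 probes gave -0.47 (adjusted p = 0.000569). Within slides MSLW was lower on 4 of 5, from -0.83 to 0.00. The comparison rests on 5 MSLW fetuses.

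Arranged by parent, the paternal contrast sets the 2 groups with an MS sire against those with an LW sire, and the maternal contrast does the same for dams. A dam gives both alleles and uterus, so the maternal contrast cannot tell them apart. For IGF2 at day 110 the paternal difference was -0.93 (95% CI -1.09 to -0.77, adjusted p = 1.74e-13) and the maternal difference was -0.49 (95% CI -0.65 to -0.33, adjusted p = 3.95e-06). The gap between these values is the difference of the reciprocal crosses given above, so it missed the threshold with the representative probe. At day 90 the paternal difference was -0.25 (adjusted p = 0.0199) and the maternal one -0.21 (adjusted p = 0.0493), neither called, although 5 of the 9 probes were called for the paternal contrast, against 0 for the maternal one, where 6 had an unadjusted p under 0.05. With slide as a block both contrasts were called, at -0.25 (adjusted p = 0.00095) and -0.21 (adjusted p = 0.0048). Shares of all probes called were 13.3% and 15.1% for the paternal and maternal contrasts at day 110, and 5.14% and 6.48% at day 90.

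The paternal contrast for IGF2 changed with age. Its interaction with age was -0.68 (95% CI -0.90 to -0.46, adjusted p = 0.000146), in a test that called only 0.462% of all probes, and 8 of the 9 IGF2 probes were called for it. No other member was called. The interaction of age with the maternal contrast was -0.30 (95% CI -0.52 to -0.08, adjusted p = 0.0807) for IGF2, and 3.05% of all probes were called there. With slide as a block it was -0.33 and called (adjusted p = 0.00484).

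**Figure D2:**
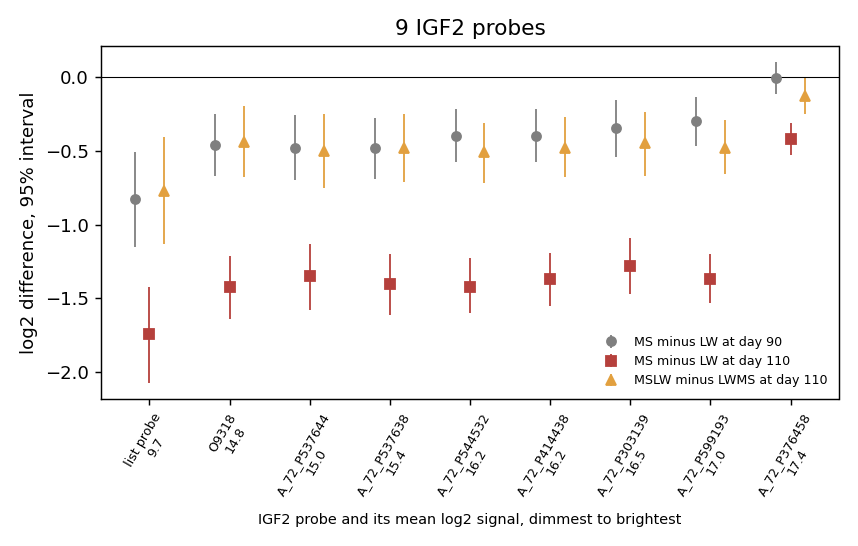
Log2 differences (vertical axis) of the 9 IGF2 probes, ordered from dimmest to brightest, for MS minus LW at day 90 (circles), MS minus LW at day 110 (squares) and MSLW minus LWMS at day 110 (triangles), with 95% confidence intervals. Between the extremes, at -1.74 for the dimmest probe and -0.42 for the brightest, the squares of 7 probes lie between -1.42 and -1.28.

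The IGF2 probes did not give one common size. Between MS and LW at day 110, 7 of the 9 estimates lay between -1.42 and -1.28. The probe named through the study's gene list stood at -1.74, and A_72_P376458 at -0.42 (adjusted p = 9.53e-09). A_72_P376458 had the highest intensity of the 9 on the array, with group means from 17.02 in MS at day 110 to 17.50 in LW at day 90. On it, MS and LW differed by -0.01 at day 90 (adjusted p = 0.96) and LW changed by -0.06 with age (adjusted p = 0.319), so the breed difference at day 90 and the LW age change were not seen with this probe.

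IGF1, the other ligand, fell with age in some genotypes. In MS it ran from 7.68 to 8.07 at day 90 (median 7.87, mean 7.86 ± 0.13, SD, n = 8) and from 6.62 to 7.41 at day 110 (median 7.14, mean 7.08 ± 0.26, SD, n = 7), with no overlap. The change was -0.78 in MS (95% CI -1.05 to -0.52, adjusted p = 8.11e-07) and -0.54 in LWMS (95% CI -0.79 to -0.28, adjusted p = 0.000287). In LW it was -0.26 and in MSLW -0.15, neither called. The mean over the 5 probes gave -0.43 in LW with a call (adjusted p = 0.00452). Taken singly, 0 of the 5 were called in LW, with changes from -0.96 to -0.26. The dimmest probe, A_72_P306168, averaged 4.02 in LW at day 90 and 3.06 at day 110. This probe stood well above background on 1 of the 9 LW arrays of day 110, so the call on the mean rests in part on a signal near background. For the representative probe, the difference between the MS and LW changes, -0.53, was not called.

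Among day 110 fetuses IGF1 was highest in MSLW, with 7.49, 7.72, 7.79, 7.76 and 8.11 (mean 7.78 ± 0.22, SD, n = 5). LWMS of that age ran from 6.61 to 7.93 (median 7.26, mean 7.29 ± 0.40, SD, n = 8), so the crosses overlapped. MSLW exceeded LWMS by 0.48 (95% CI 0.19 to 0.78, adjusted p = 0.0589), the opposite sign to IGF2, without a call. The maternal contrast at day 110 was -0.33 (adjusted p = 0.00846) for IGF1. That call was lost without any one of 4 of the 5 MSLW fetuses of day 110, with an adjusted p up to 0.0304 (replicate 5; the others were replicates 2, 3 and 4), and in a fit of the day 110 groups alone (adjusted p = 0.0452). It was also lost with the brightest probe (-0.23, adjusted p = 0.0618), with the mean over probes (-0.25, adjusted p = 0.0682) and with no filter on dim probes (adjusted p = 0.0128). The 5 IGF1 probes agreed poorly within groups, with a median r of 0.24 over 10 pairs.

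Of the receptors, IGF1R, which transmits the signal of both ligands, rose with age in LWMS and MS. In LWMS it went from 9.84 to 10.82 at day 90 (median 10.24, mean 10.29 ± 0.32, SD, n = 8) to 10.69 to 11.33 at day 110 (median 10.90, mean 10.97 ± 0.20, SD, n = 8). The rise was 0.67 in LWMS (95% CI 0.39 to 0.96, adjusted p = 4.57e-05) and 0.44 in MS (95% CI 0.15 to 0.74, adjusted p = 0.00681). Day 110 was higher on every slide for both, 8 of 8 and 7 of 7. LW changed by 0.11 and MSLW by 0.15, neither called, and no breed or parental contrast called the representative probe. One of the 3 IGF1R probes was called lower in MSLW than in LWMS at day 110, and the mean over the 3 gave -0.51 (adjusted p = 0.00801) there, against -0.44 (adjusted p = 0.146) for the representative probe. The maternal contrast at day 110 was 0.31 for the representative probe (adjusted p = 0.0307), but the mean over the 3 gave 0.38 with a call (adjusted p = 0.000194), and 1 of the 3 was called on its own.

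IGF2R, the receptor that clears IGF2, was not called for age by its representative probe in any genotype, although the MS change was called with slide as a block (-0.45, adjusted p = 0.00999), in a fit of the groups compared alone (adjusted p = 0.00863) and without the least correlated array (adjusted p = 0.00845). It changed by 0.29 in LW and by -0.43 in MS, and these changes differed by -0.72 (adjusted p = 0.0289), a difference called with slide as a block (adjusted p = 0.00859). At day 110 it ran from 5.62 to 6.71 in LW (median 6.13, mean 6.16 ± 0.31, SD, n = 9) and from 5.16 to 5.72 in MS (median 5.47, mean 5.46 ± 0.22, SD, n = 7). The groups overlapped slightly, and MS was lower on 6 of 6 slides. The breed difference was -0.70 (95% CI -1.03 to -0.38, adjusted p = 0.000444) and the paternal contrast -0.50 (95% CI -0.75 to -0.25, adjusted p = 0.00219). Each was called with 2 of the 5 probes. The 5 estimates ran from -0.70 to 0.04 for breed and from -0.50 to 0.14 for sire, so the representative probe gave the lowest of each. The paternal call was lost when the mean over the 5 probes was used (-0.25, adjusted p = 0.0168) or when the median signal (-0.30, adjusted p = 0.0145) or the deposited values (-0.31, adjusted p = 0.0112) were used.

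The 5 IGF2R probes disagreed on age, with a median within-group r of 0.40 over 10 pairs. The probe of highest intensity, O10348, was lower at day 110 in MS (-0.63, adjusted p = 1.49e-09), in MSLW (-0.63, adjusted p = 3.18e-08) and in LWMS (-0.40, adjusted p = 2.1e-05). It also called the breed difference at day 110, at -0.52 (adjusted p = 5.24e-07), and the paternal contrast, at -0.36 (adjusted p = 8.22e-06). A probe of the same sequence, named M6P/IGF2R on the array, read within 0.19 of it on every array. On that second spotting the age change was -0.71 in MSLW, -0.63 in MS and -0.37 in LWMS, but -0.36, -0.17 and -0.01 under 75th percentile scaling, where the last of these and the MS value were not called. At day 90, 1 MSLW fetus with a value of 7.11 widened its group to an SD of 0.53, against 0.20 to 0.29 in the other day 90 groups.

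**Figure D3:**
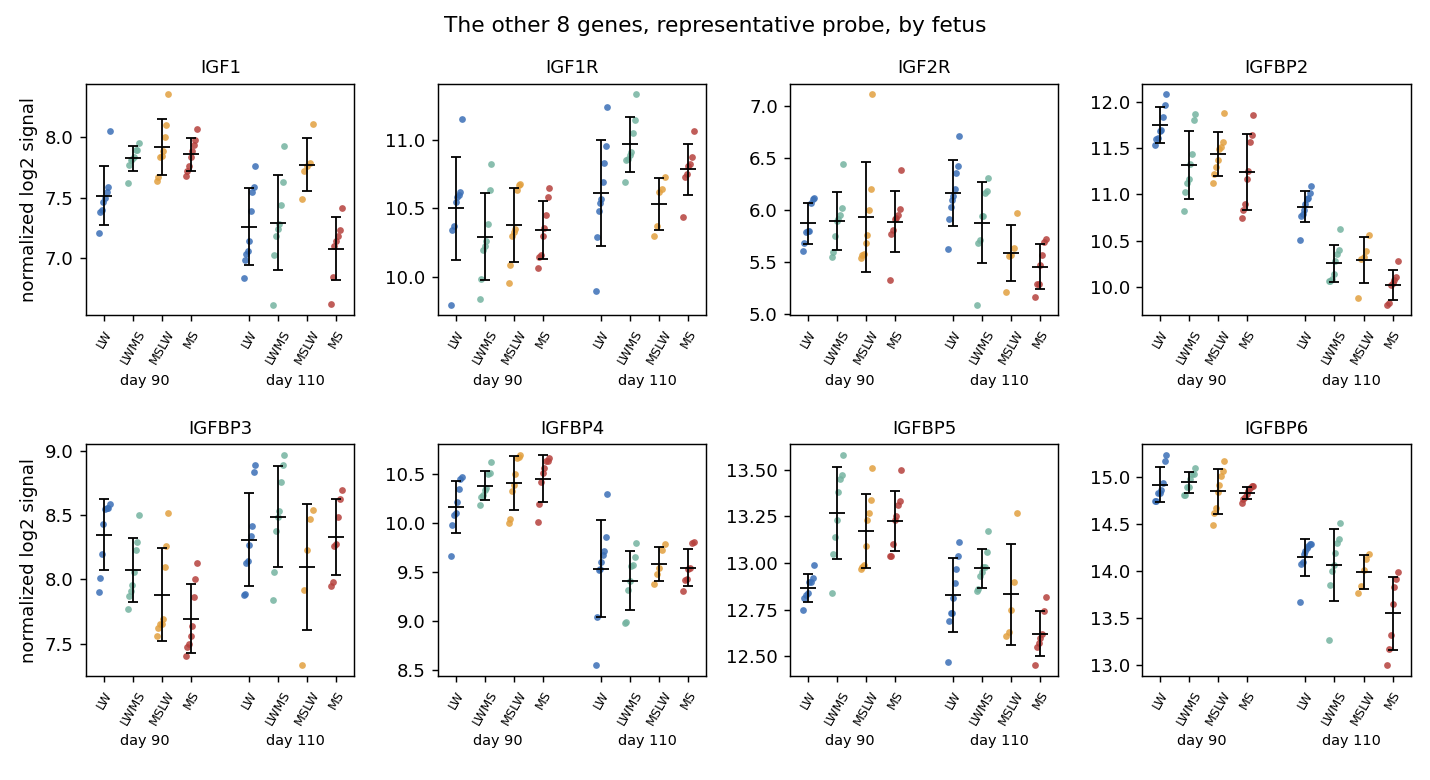
Levels of the 8 members other than IGF2 (representative probes, quantile-normalized log2 intensity) in each fetus by genotype and day, with points sorted by value within a group and the black bar the mean ± SD. IGFBP2 and IGFBP6 separate the ages without overlap in every genotype, while IGF1R, IGF2R and IGFBP3 overlap throughout. Age called 44.6% to 56.7% of all probes, by genotype, and the share of all probes without overlap is not given.

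The binding proteins moved in different directions. IGFBP2, a fetal binding protein with affinity for both ligands, fell in all 4 genotypes. LW ran from 11.53 to 12.08 at day 90 (median 11.69, mean 11.75 ± 0.19, SD, n = 8) and from 10.51 to 11.09 at day 110 (median 10.90, mean 10.87 ± 0.17, SD, n = 9). MS ran from 10.75 to 11.86 (median 11.21, mean 11.25 ± 0.41, SD, n = 8) and then from 9.81 to 10.28 (median 10.04, mean 10.02 ± 0.16, SD, n = 7). The ages did not overlap within any genotype. The changes were -1.22 in MS, -1.14 in MSLW, -1.06 in LWMS and -0.88 in LW, with adjusted p-values from 1.41e-11 to 3.15e-08, and all 4 probes were called each time.

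IGFBP2 was also lower in MS than in LW, without overlap at day 110. The difference was -0.50 at day 90 (95% CI -0.77 to -0.24, adjusted p = 0.00334) and -0.84 at day 110 (95% CI -1.11 to -0.58, adjusted p = 7.04e-07), and MS was lower on 8 of 8 and 6 of 6 slides. The day 90 call was lost in a fit of the day 90 purebreds alone (adjusted p = 0.0228). Its paternal and maternal contrasts at day 110 were of like size, -0.40 (adjusted p = 0.00203) and -0.44 (adjusted p = 0.000679). MSLW and LWMS differed by 0.04 (95% CI -0.26 to 0.34, adjusted p = 0.961). The age changes of MS and LW differed by -0.34, which was not called.

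Probes of related binding proteins can share sequence, and the longest run common to a pair of IGFBP2 and IGFBP5 probes is shown in capitals, in the conserved part of the family.
O12823 (IGFBP2): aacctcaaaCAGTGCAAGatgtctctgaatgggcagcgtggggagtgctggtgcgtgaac
A_72_P146706 (IGFBP5): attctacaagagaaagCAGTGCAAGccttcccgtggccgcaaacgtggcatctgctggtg
This run is 9 bases of 60.

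IGFBP6, which prefers IGF2, fell with age in every genotype and did not overlap between the ages. In MS it ran from 14.72 to 14.90 at day 90 (median 14.83, mean 14.82 ± 0.07, SD, n = 8) and from 12.99 to 13.98 at day 110 (median 13.64, mean 13.55 ± 0.39, SD, n = 7). In LW it ran from 14.74 to 15.23 (median 14.85, mean 14.91 ± 0.18, SD, n = 8) and then from 13.66 to 14.28 (median 14.21, mean 14.14 ± 0.20, SD, n = 9). The changes were -1.28 in MS, -0.88 in LWMS, -0.86 in MSLW and -0.77 in LW, with adjusted p-values from 2.81e-13 to 4.14e-07. Under 75th percentile scaling they were -0.72, -0.39, -0.41 and -0.40, and those of LWMS and MSLW were no longer called (adjusted p = 0.0102 and 0.0203). At day 110 IGFBP6 was lower in MS than in LW by -0.60 (95% CI -0.84 to -0.35, adjusted p = 8.38e-05), on 6 of 6 slides, where at day 90 the difference was -0.09.

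Of the IGFBP6 probes, A_72_P088481 and A_72_P710138 read nearly the same stretch, and 3 of their 56 overlapping bases differ. Counted from 1 at the 5′ end of A_72_P088481, the differences are T5C, C30T and T32C, with its own base first. The stretch around the last of them is shown with those bases in capitals, from base 17 of the first probe and base 13 of the second.
A_72_P088481: ttgttggtgttggCgTggggtattaata
A_72_P710138: ttgttggtgttggTgCggggtattaata
All 4 IGFBP6 probes were called lower with age in LW, MS and MSLW, and 3 of 4 in LWMS.

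IGFBP4, a binding protein that restrains IGF action until it is cleaved, fell with age in every genotype. In LWMS it ran from 10.19 to 10.63 at day 90 (median 10.35, mean 10.39 ± 0.15, SD, n = 8) and from 8.98 to 9.80 at day 110 (median 9.49, mean 9.41 ± 0.30, SD, n = 8). The changes were -0.98 in LWMS, -0.91 in MS, -0.83 in MSLW and -0.63 in LW, with adjusted p-values from 4.79e-08 to 0.000124, and they moved by at most 0.01 under 75th percentile scaling. Its ages overlapped in LW alone. No breed or parental contrast called it: MS and LW differed by 0.29 at day 90, with MS higher on 8 of 8 slides, and by 0.01 at day 110 (95% CI -0.28 to 0.30).

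At day 90, but not at day 110, IGFBP5 was called higher in the MS breed. At day 90 it ran from 12.75 to 12.99 in LW (median 12.87, mean 12.87 ± 0.07, SD, n = 8) and from 13.04 to 13.50 in MS (median 13.24, mean 13.22 ± 0.16, SD, n = 8), without overlap. At day 110 LW ran from 12.47 to 13.11 (median 12.81, mean 12.83 ± 0.20, SD, n = 9) and MS from 12.45 to 12.82 (median 12.60, mean 12.62 ± 0.12, SD, n = 7). MS was higher by 0.36 at day 90 (95% CI 0.18 to 0.54, adjusted p = 0.00234), on 8 of 8 slides, a call lost with the mean over its 2 probes (0.29, adjusted p = 0.0183), and it differed by -0.21 at day 110 (95% CI -0.39 to -0.02, adjusted p = 0.0669), which was not called.

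The age change of IGFBP5 was -0.61 in MS (adjusted p = 1.15e-07), -0.30 in LWMS (adjusted p = 0.00402), -0.34 in MSLW (adjusted p = 0.00423) and -0.04 in LW. Under 75th percentile scaling it was -0.25, 0.00 and -0.06 in MS, LWMS and MSLW, with no call in any of them. The MSLW call was also lost without MSLW replicate 1, 2 or 4 of day 110, with an adjusted p up to 0.0267. The MS and LW changes differed by -0.56 (95% CI -0.82 to -0.31, adjusted p = 0.00194), and by -0.42 under that scaling (adjusted p = 0.0148). One of the 2 IGFBP5 probes carried these calls, and their r within groups was 0.42.

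Among the binding proteins, IGFBP3 was called higher with age, by its representative probe in MS only. In MSLW that probe changed by 0.22, without a call. In MS it ran from 7.40 to 8.13 at day 90 (median 7.60, mean 7.70 ± 0.27, SD, n = 8) and from 7.95 to 8.70 at day 110 (median 8.28, mean 8.33 ± 0.30, SD, n = 7), a rise of 0.63 (95% CI 0.29 to 0.98, adjusted p = 0.00114). LW ran from 7.90 to 8.59 at day 90 (median 8.49, mean 8.35 ± 0.28, SD, n = 8) and changed by -0.04. MS was thus lower at day 90, by -0.65 (95% CI -0.99 to -0.32, adjusted p = 0.00247), on 7 of 8 slides, and differed by 0.02 at day 110 (95% CI -0.32 to 0.35). The difference of the age changes, 0.67, was not called. The IGFBP3 probes correlated within groups with r = 0.91, and both were called for the MS age change and for the breed difference at day 90. In LWMS the age change was 0.54 and called for A_72_P165666 (adjusted p = 0.00277), 0.42 and not called for the representative probe (adjusted p = 0.0265), and 0.48 and called for the mean of both (adjusted p = 0.00675).

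**Figure D4:**
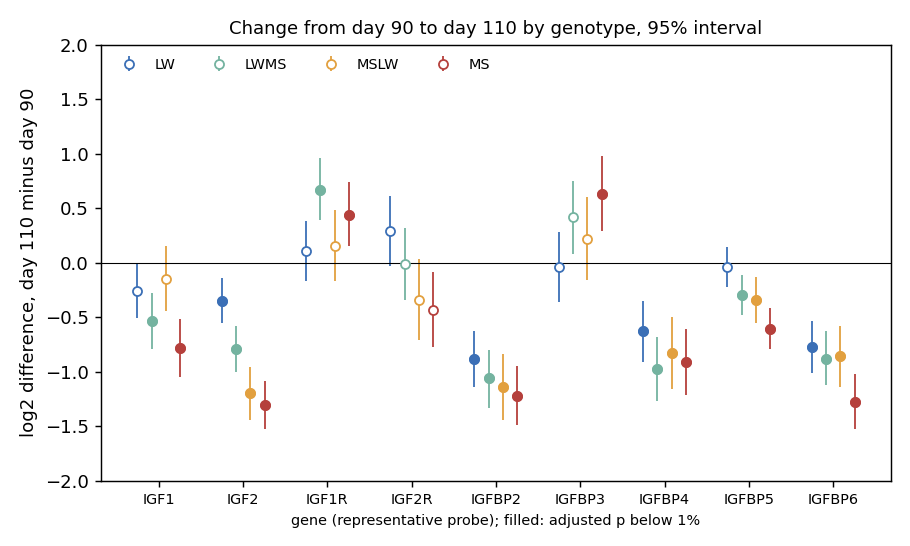
Change from day 90 to day 110 (log2 difference, vertical axis) of each member's representative probe in LW, MS, LWMS and MSLW, with 95% confidence intervals; filled markers have an adjusted p below 1%. IGFBP2, IGFBP4 and IGFBP6 lie below 0 in all 4 genotypes, IGF2 runs from -0.35 in LW (0.02 under 75th percentile scaling) to -1.31 in MS, and IGF1R and IGFBP3 lie above 0 in MS.

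Counted over the 9 members by representative probe, 6 were lower and 2 higher at day 110 in MS, 6 lower and 1 higher in LWMS, 5 lower and 0 higher in MSLW, and 4 lower and 0 higher in LW. The share of all probes called for age was 56.7%, 50.9%, 44.6% and 45.3% in that order, and 4 of 9 in LW is close to it. Over the 36 probes the numbers lower were 24, 23, 21 and 16. The median change of the 9 representative probes was -0.78, -0.54, -0.34 and -0.26 in that order, beside medians over all probes of 0.033, 0.043, 0.022 and 0.026. Under 75th percentile scaling 4 members were called in LWMS and 3 in MSLW, against 7 and 5. Between the breeds, 3 members were lower and 1 higher in MS at day 90, where 12.8% of all probes were called, and 4 were lower and 0 higher at day 110, where 29% were.

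**Figure D5:**
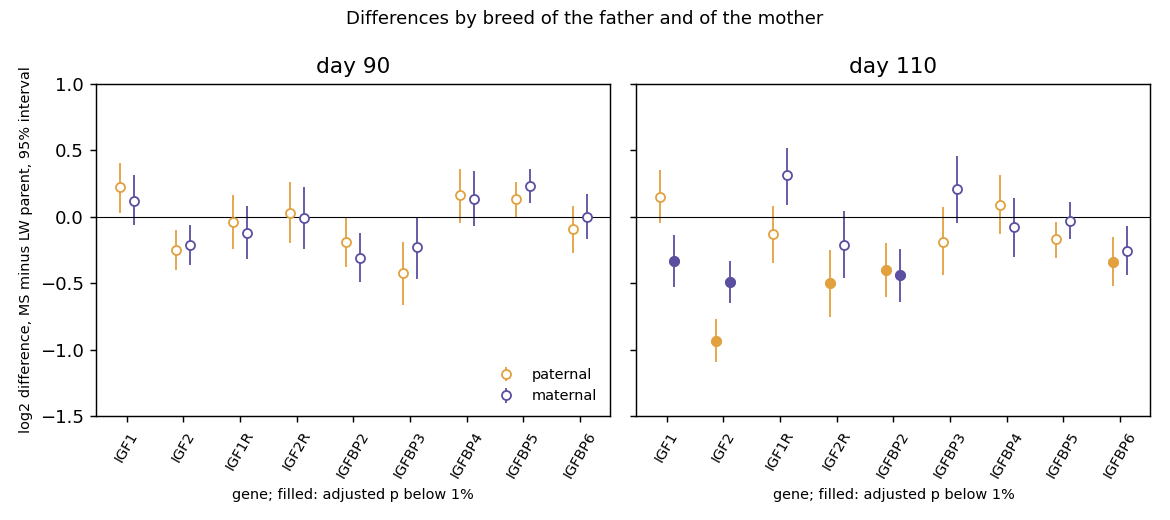
Paternal and maternal MS minus LW differences (log2, vertical axis) of each member's representative probe at day 90 and day 110, with 95% confidence intervals; filled markers have an adjusted p below 1%. At day 110 IGF2 stands at -0.93 for the sire and -0.49 for the dam, and IGFBP2 at -0.40 and -0.44.

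At day 110 the paternal contrast called 4 members lower (IGF2, IGF2R, IGFBP2 and IGFBP6) and the maternal contrast 3 (IGF1, IGF2 and IGFBP2), where 13.3% and 15.1% of all probes were called. The IGFBP6 value was -0.34 (adjusted p = 0.00547) and was not called under 75th percentile scaling (-0.25, adjusted p = 0.0672), and its call held in 11 of 18 alternatives. It was lost with deposited values and with median signal (adjusted p = 0.0115 for each), with the mean over probes (-0.24, adjusted p = 0.0334) and in a fit of those groups alone (adjusted p = 0.039). In the paternal contrast, the IGFBP2 call was lost without MSLW replicate 4 of day 110 (adjusted p = 0.0101), and the IGFBP6 call without MSLW replicate 2 (adjusted p = 0.0167) or 5 (adjusted p = 0.0128). At day 90 neither contrast called a member by its representative probe, while 6 of the 36 probes were called lower for the sire and 3 for the dam, beside 5.14% and 6.48% of all probes in either direction.

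As a description of spread, age accounted for 73.3% of the variation of IGFBP6 among the 61 fetuses, 68.1% of IGFBP4, 67.2% of IGFBP2 and 46.9% of IGF2. Genotype accounted for 33.0% of the variation of IGF2 and 16.7% of IGFBP2, and for less in each other member. Slide accounted for 17.3% of IGF2R and 16.4% of IGFBP4, and 2.48% to 14.3% of the rest. What was left within groups and slides was 4.62% for IGF2 and 49.7% to 52.9% for IGF1R, IGF2R and IGFBP3.

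Beyond the members, genes that govern how much ligand is free were followed through a list of 10, of which 8 were measured. HTRA1, a protease that cleaves binding proteins, was lower at day 110 in every genotype, by -1.28 in LW to -1.80 in MS, and IGFBP7, a low-affinity relative of the binding proteins, was lower by -0.87 in LW to -1.45 in MS. IGFALS, which completes the circulating carrier complex, changed by -0.91 in LW to -1.35 in MS. STC1, an inhibitor of the pappalysin proteases, rose by 1.14 in LWMS to 2.05 in MSLW. PAPPA, a protease that STC1 inhibits, rose by 1.03 in LW to 1.44 in MSLW, but from a low signal. Its group means ran from 2.76 in MSLW to 3.82 in LWMS at day 90. At day 110 they ran from 4.2 in MSLW to 4.9 in LWMS. For comparison, an IGF1 probe averaging 3.8 stood well above background on 33 of 61 arrays, so the size of the PAPPA rise is uncertain. In each genotype 3 of the 8 were called lower, while 4 were called higher in MS and LWMS and 3 in the others, beside 44.6% to 56.7% of all probes called for age. Under 75th percentile scaling PAPPA was not called in LW (0.90, adjusted p = 0.0102). At day 110 the breed contrast, which called 29% of all probes, called 2 of the 8 genes higher in MS and 2 lower. STC2, related to STC1, differed by 0.92 (adjusted p = 3.54e-06), the lysosomal protease CTSD by 0.26, IGFBP7 by -0.36 and HTRA1 by -0.32. Neither of the lower values was called under 75th percentile scaling (-0.11 and -0.25). Between the reciprocal crosses limma called 0 of the 8 at either age, with 2 at an unadjusted p under 0.05 each time. Of all probes, 0.5% were called at day 90 and 0.912% at day 110.

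A second list held neighbours of IGF2, regulators and binding proteins of its messenger RNA, with 7 of 10 measured. The probe named INS-IGF2, a read-through transcript that carries IGF2 sequence, is not an independent reading, and its differences were close to those of IGF2: -1.45 between MS and LW at day 110, -1.48 with age in MS and -0.54 between MSLW and LWMS at day 110 (adjusted p = 0.000304). Its age change in LW was -0.27, and 0.00 under 75th percentile scaling. IGF2BP3, an RNA-binding protein of the fetal period, changed by -0.60 in LWMS to -0.69 in LW. H19, the maternally expressed non-coding neighbour of IGF2, was higher at day 110 in LW, LWMS and MSLW by 0.31, 0.37 and 0.29. The probe named IGF2AS, after the antisense transcript, was higher by 0.36, 0.28 and 0.27 in the same genotypes, and in MS it changed by 0.11, or by 0.49 with a call under 75th percentile scaling. By gene, 4 were lower and 0 higher in MS, 4 and 2 in MSLW, 3 and 2 in LWMS, and 2 and 2 in LW. Of all probes, age called 56.7%, 44.6%, 50.9% and 45.3% in that order, and 4 of 7 in MS is close to its share.

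PLAGL1, an imprinted zinc finger factor expressed from the paternal copy, was also lower in MSLW than in LWMS at day 110. It averaged 12.24 in LW, 12.00 in LWMS, 11.21 in MSLW and 11.11 in MS at that age, and 12.02 to 12.29 at day 90. MSLW was below LWMS by -0.79 (adjusted p = 3.31e-06), the paternal contrast was -0.96 (adjusted p = 1.11e-14), and the interaction of age with the paternal contrast was -1.01 (adjusted p = 3.08e-09). The maternal contrast did not call it. Which parental copy was expressed was not measured.

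Downstream of the receptors, 23 of 29 listed genes were measured. GRB10, an adaptor that dampens signalling of the insulin and IGF1 receptors, rose by 2.13 in MSLW to 2.39 in MS, with adjusted p-values from 1.1e-20 to 1.43e-16. FOXO3, a transcription factor held in check by the pathway, rose by 0.95 to 1.40 and EIF4EBP1, a brake on translation, by 1.20 to 1.43. PIK3R2, a regulatory subunit of phosphoinositide 3-kinase, was lower by -1.32 in LW to -1.75 in MS, and the adaptor SHC1 by -0.76 to -1.10. GRB14, a relative of GRB10, changed by -1.16 in MSLW, -1.14 in LW and -0.66 in LWMS, and by -0.31 without a call in MS. Counts higher and lower with age were 12 and 3 in MS, 10 and 4 in LWMS, 8 and 4 in LW, and 6 and 4 in MSLW, of 23, beside the 56.7%, 50.9%, 45.3% and 44.6% of all probes called for age.

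Between breeds 4 of the 23 were called at each age, beside 12.8% of all probes at day 90 and 29% at day 110. At day 110, 1 gene was higher in MS (IRS1, the docking protein below the receptor, 0.64, adjusted p = 0.000528) and 3 were lower, led by FOXO1 at -0.85 (adjusted p = 6.25e-07) and PIK3R2 at -0.60 (adjusted p = 5.3e-07). At day 90, 2 were higher (PIK3R3 at 0.50 and SHC1 at 0.45) and 2 lower (AKT1 at -0.48 and TSC1 at -0.38). Between the reciprocal crosses limma called 0 of the 23 at either age, with 2 at day 90 and 4 at day 110 under an unadjusted p of 0.05. Of all probes, 0.5% and 0.912% were called.

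Cell type markers moved beside the members. Their counts stand beside 44.6% to 56.7% of all probes called for age, by genotype. For breed, 12.8% were called at day 90 and 29% at day 110. The tissue read as skeletal muscle, with 7 of 8 fibre markers measured. Of these, 4 rose and 1 fell with age in MSLW, and 5 rose and 1 fell in each other genotype. The one that fell was MYH3, the embryonic myosin heavy chain, by -3.59 in MS. Between breeds at day 110, 2 of the 7 were higher in MS and 1 was lower, while under 75th percentile scaling 5 were higher, ACTA1 among them by 0.50.

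All 8 fibroblast and connective tissue markers fell with age in each genotype, and all 8 were also called lower under 75th percentile scaling. Their median change was -2.17 in MS, -1.66 in both crosses and -1.28 in LW. At day 110 6 of the 8 were lower in MS than in LW, beside 29% of all probes called. The median was -0.88, with POSTN at -1.46 and COL1A1 at -1.04 among the lower. The mean log2 level of the list ran from 13.55 to 14.03 over all fetuses of day 90, from 11.83 to 12.64 in LW at day 110, and from 11.33 to 11.64 in MS at day 110, without overlap. It ran from 11.45 to 12.37 in LWMS and from 11.77 to 12.57 in MSLW. For the difference of the age changes, MS minus LW, 6 of the 8 were called lower (median -0.87), where 5.95% of all probes were called. The paternal and maternal contrasts at day 110 each called 5 of the 8 lower (medians -0.42 and -0.44), beside 13.3% and 15.1% of all probes. This list thus moved with the age changes of IGF2, IGFBP2, IGFBP4 and IGFBP6. It also moved with the breed differences and the parental contrasts at day 110, and its part in those results was not tested. It did not separate the reciprocal crosses, with 0 of 8 called by limma, 0 at an unadjusted p under 0.05 and a median of 0.04 at day 110, where 0.912% of all probes were called. Nor did it separate the breeds at day 90, with 0 of 8 called, 1 at an unadjusted p under 0.05 and a median of 0.08, where 12.8% of all probes were called.

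Of the 4 progenitor markers, MYOD1 and MYOG, which drive myoblast differentiation, fell with age in every genotype, while PAX7, a satellite cell factor, rose. Age called 44.6% to 56.7% of all probes. MYOG changed by -1.07 in LW to -1.74 in LWMS and PAX7 by 0.56 in LW to 1.69 in MS. The PAX7 change was not called under 75th percentile scaling in LW (0.52) or MSLW (0.61). At day 110 PAX7 was 1.54 higher in MS than in LW (adjusted p = 2.96e-09), and it was the 1 of the 4 called. The median of the 4 was -0.20, and this contrast called 29% of all probes. Mean levels in MS and LW were 8.82 and 9.20 for MYOD1, 10.81 and 11.28 for MYOG, and 4.46 and 4.48 for MYF5.

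Of the other cell types, 3 of 4 endothelial markers fell and 1 rose with age in every genotype, where 44.6% to 56.7% of all probes were called. KDR, a receptor of endothelial cells, was at -1.31 between MS and LW at day 110, and it was the 1 of the 4 called. The median of the 4 was -0.18, and this contrast called 29% of all probes. Mean levels in MS and LW were 10.20 and 10.28 for PECAM1, 12.28 and 12.30 for VWF, and 11.29 and 11.57 for CDH5. Of the 5 adipocyte markers, 1 rose with age in every genotype and 1 fell in MS, fewer than the share of all probes called. Of 4 blood and immune markers limma called 0 for age or breed, with 0 to 1 at an unadjusted p under 0.05 in each comparison and a mean log2 level of 7.20 to 8.57 over all fetuses. These comparisons called 12.8% to 56.7% of all probes. Of 4 liver markers, TTR and AFP did not pass the filter on dim probes, ALB averaged 4.81 to 6.37 and APOA1 11.38 to 12.71 by group.

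To describe which genes varied most like the members other than IGF2R, values were taken after removing group and slide means, over 61 fetuses and 9443 named genes. For IGF2 these were MESP1 (r = 0.856), ADAT3 (r = 0.782) and ATL1 (r = 0.67). The nearest gene to IGFBP4 was POSTN (r = 0.757), a fibroblast marker of the list above, the nearest to IGF1R was MECOM (r = 0.728) and the nearest to IGFBP6 was KDELR3 (r = 0.709). IGFBP2 was nearest to ACPT (r = 0.704), IGF1 to CDKN2C (r = 0.67), IGFBP3 to PSME4 (r = 0.618) and IGFBP5 to SLC7A7 (r = 0.519). Among the members themselves the highest was 0.39 between IGF2 and IGFBP6, and the lowest -0.47 between IGFBP2 and IGFBP5. Points share array, RNA sample and, in part, litter.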

How the data were processed

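RNA of 61 fetal muscles was hybridised with Cy3 to 1-colour Agilent porcine arrays on 8 slides. The deposited scanner files hold, per the file headers, spot intensity processed by Agilent Feature Extraction 10.10.1.1 with background subtraction. The deposited value table holds log2 values that the authors quantile normalized after quality control; it lists 44368 spots by their order in the scanner files, where its values correlated with log2 median intensity at 0.998 to 1. The authors' fit with sow as a random effect could not be repeated, since the labels do not name the sow.

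Here log2 processed intensity of 60306 spots was quantile normalized. On each array 4 to 802 spots carried a non-uniformity mark and were left out, and spots of one probe were averaged. Probes entered the test if they stood well above background in 80% or more of the fetuses of any group. Per array 34346 to 45683 spots were well above background (median 41982), and the number of arrays limits the precision. One linear model of the 8 groups, or of age and both parental breeds with their pairwise interactions, was fitted per probe with limma 3.58.1 in R 4.3.3, with two-sided moderated tests, Benjamini-Hochberg adjustment over 42436 probes and a 1% threshold. The script was tested on simulated data. Slides were told apart by the barcode shared in the scanner file names.

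The representative probe of a gene had the highest median within-group correlation with its other probes, or with 1 or 2 probes the higher intensity. From each list of pathway genes, at most 2 genes in each direction, the largest, were named per comparison, and then given in every genotype. The members and lists were chosen with earlier results of these data known. The 18 alternatives changed the normalization, the signal column, the filter, the probe, the model or the fetuses included. Their effects are given at the end. Columns of gene statistics in the study's lists were not used. The gene whose values varied most like those of IGF2R is not reported here.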

Additional observations from a re-analysis of the deposited data

Results flagged for a closer look

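Of 72 groups of fetuses examined, one per member and group, 3 held a fetus whose gap to its nearest neighbour was past the 95% critical value of Dixon's test, where chance alone gives about 5% of groups. For IGF1 this was an LW fetus of day 90 at 8.05, with the nearest at 7.59. For IGF2R it was an MSLW fetus of day 90 at 7.11, with the nearest at 6.20, on the array whose correlation with its group was lowest (0.962). For IGFBP6 it was an LW fetus of day 110 at 13.66, with the nearest at 14.07. For 3 results the effect differed between groups in a direct test. The age change of IGF2 was more negative in MS than in LW, by -0.96, and so was that of IGFBP5, by -0.56, on 1 of its 2 probes. The IGFBP5 difference was not called under 75th percentile scaling (-0.42, adjusted p = 0.0148). The paternal MS minus LW difference of IGF2 was more negative at day 110 than at day 90, by -0.68.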

How the results depend on the processing

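IGF2 kept its direction and its call in the MS and MSLW age changes, in the breed, paternal and maternal contrasts at day 110, and in the difference of the age changes, under each of the 18 alternatives; its interaction of age with sire did so under each one that could be run. Under 75th percentile scaling, where the median of all probes for age in MS went from 0.033 to 0.13, IGF2 changed by 0.02 in LW, and MSLW minus LWMS at day 90 was 0.00 (-0.04 before). With the probe of highest intensity these were -0.06 and 0.01, and MS minus LW at day 90 was -0.01. MSLW minus LWMS at day 110 was -0.40 with slide as a block and -0.47 as a mean over probes.

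Members called under 75th percentile scaling were 4 against 7 for age in LWMS, 3 against 5 in MSLW and 1 against 2 for the difference of age changes. Against 0, the reciprocal contrast at day 110 called 2 with the mean over probes and 1 with slide as a block, which also called IGF2 alone for the interaction of age with dam, 1 against 0. The maternal contrast at day 90 called 2 with slide as a block and 1, against 0, with the probe of highest intensity, deposited values, marked spots kept, the mean over probes, median signal, normexp background, and the filter for probes well above background on all arrays. The paternal contrast at day 90 called 2 in a fit of those groups alone or without the least correlated array (chosen after seeing the data), and 1 with the mean over probes or slide as a block, against 0. At day 110 it called 2 with deposited values, the mean over probes and median signal, against 4. Leaving out each MSLW fetus of day 110 in turn gave 0 to 1 for both parental contrasts at day 90. Day 90 estimates use no day 110 fetus, and those that gained a call did not move. They were -0.42 for IGFBP3 (sire, without replicate 3) and 0.23 for IGFBP5 (dam, without replicate 5). What such a fit can change is the spread shared by the 8 groups and the adjustment over probes. Without MSLW replicate 3, all probes called for the reciprocal contrast at day 110 went from 387 to 238 and for age by sire from 196 to 308; the former was 83 in a fit of those groups alone, and slide as a block took age by dam from 1293 to 2143. No paired analysis was possible because the labels pair no fetuses across groups, and slide was the block used in its place.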
